A study of Mus musculus with 4 samples.

Results

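Fdps, Lss, Scd2, Fads1, Fads2 and Acss2 are target genes of the sterol regulatory element-binding proteins (SREBPs), 6 of the 4878 genes listed in a table of ribosome footprints. They were selected by name from genes whose coding footprints were known to be lower after knockdown of the translation initiation factor eIF1A. Their differences between the groups are therefore given as descriptions, with no test. Fdps and Lss, enzymes of cholesterol synthesis, formed the sterol branch (2 genes). Scd2, Fads1, Fads2 and Acss2, which supply or modify fatty acids, formed the fatty acid branch (4 genes). The cells were mouse embryonic fibroblasts, connective tissue cells cultured from embryos, at passages 5 to 8. The control group was transfected with a negative control siRNA and the knockdown group with an siRNA labelled Si-eIF1A (X+18), each with 2 libraries, and both groups received the same lipid reagent. The labels give no genotype or strain and do not say that replicates were separate cultures. The p-values therefore measure only how these libraries vary, and part or all of that may be technical.

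SREBPs are transcription factors made as membrane proteins of the endoplasmic reticulum, where the sterol sensor Scap and the anchor protein Insig1 hold them while sterols are plentiful. When sterols run low, Scap carries them to the Golgi, proteases cut them, and the released part enters the nucleus and switches on genes of lipid supply. SREBP-2 acts mainly on cholesterol synthesis and uptake, and SREBP-1 mainly on fatty acid synthesis and desaturation. In ribosome profiling, the RNA fragments that ribosomes protect from a nuclease are sequenced. The number of footprints on a gene depends both on how much mRNA is present and on how densely ribosomes occupy it, and fewer cells and less RNA per cell cannot be told apart in bulk samples. eIF1A binds the small ribosomal subunit and acts in scanning of the 5' untranslated region of mRNAs (5' UTR, which ribosomal subunits scan ahead of the coding sequence) and in start codon choice.

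The listed genes held 280649 to 617663 reads per library, and knockdown replicate 2 was the shallowest. Values are normalized reads, that is, reads scaled by 1 factor per library, where a single read is worth 0.717 and 0.864 in the controls but 1.02 and 1.60 under eIF1A siRNA, replicate 1 first here and throughout. No value was below 1 read, so genes with 1 read may have had none. Reads on 5' UTRs made up 11.6% and 13.7% of the listed reads in the controls and 19.95% and 32.4% under eIF1A siRNA. Eif1ax and Eif1a, the genes for eIF1A, were not analysed here, so the knockdown itself was not checked. Of 11 fibroblast markers, 3 were listed, with summed levels of 3853 and 5504 normalized coding reads in the controls and 3454 and 2871 under eIF1A siRNA, mostly from Fn1 (3032 and 4881, then 2209 and 2399). S100a4 fell from 142 ± 10.6 to 17.9 ± 0.530 (SD, n = 2), a log2 difference of -2.92 (limma adjusted p = 2.4e-05), and Vim had a log2 difference of 0.38 (limma adjusted p = 0.481). Of 10 adipocyte and 10 hepatocyte markers 0 were listed, and of 8 epithelial markers 1 was, Dsp (109 and 146 normalized coding reads in the controls, 82.4 and 71.8 under eIF1A siRNA). The part of these markers' cells in the results was not tested.

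The promoters of 3 members, Lss, Acss2 and Fads2, were read from RefSeq (mm10, GRCm38.p6), each from 250 bases before to 50 after a transcript start. The promoter set used held no entry for Fdps, Scd2 and Fads1. The 3 promoters are shown because SREBPs are known to act beside the factors NF-Y and Sp1. Whether these sites bear on the footprints was not tested. Capitals mark an NF-Y CCAAT box, which reads ATTGG on the other strand, in the first pair and an Sp1 GC box in the last. Each stretch is written 5' to 3' on the strand of its gene. They lie at chr10:76531531-76531560 (plus strand), chr2:155517958-155517987 (plus strand) and chr19:10101672-10101701 (minus strand).
Lss: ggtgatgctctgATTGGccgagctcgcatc
Acss2: gccctacccactATTGGatgcctagagcac
Fads2: cgggcctagggtGGGCGGaggaaggggacc

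The capitals start at position -62 of Lss, -73 of Acss2 and -186 of Fads2, counted from the transcript start of each promoter. For Lss this start lies within the gene coordinates given below, not at their first base. On both strands, CCAAT occurred in 37.4% of 32851 promoters of this length and GGGCGG in 35.7%. Among the 3831 listed genes with such a promoter the shares were 44.0% and 75.2%, so a GC box in each of the 3 members is near the share of listed genes. Acss2 held 5 GC boxes and Lss 2, and Fads2 held 1 GC box with 0 CCAAT boxes. The sterol regulatory element, searched as TCACNCCAC, occurred in 1.24% of all promoters and in 0 of these 3. The E-box CACGTG, a palindrome, occurred in 7.15% of promoters and also in 0 of these 3. These searches cover only those letters in those windows.

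Both sterol branch genes had fewer coding footprints under eIF1A siRNA, by similar amounts. Fdps (chromosome 3, 89093588 to 89101967) encodes farnesyl diphosphate synthase, which makes the isoprenoid building block of sterols, ubiquinone, dolichol and prenyl anchors. It had 356 and 324 normalized coding reads in the controls and 72.2 and 52.7 under eIF1A siRNA. The groups did not overlap, and the log2 difference was -2.44. Lss (chromosome 10, 76531565 to 76557139) encodes lanosterol synthase, which closes the sterol ring. It had 119.7 and 94.2 normalized coding reads in the controls and 25.4 and 20.7 under eIF1A siRNA, a log2 difference of -2.16. The controls were thus 5.29 times higher for Fdps, with a 95% counting interval of 4.31 to 6.54, and 4.58 times higher for Lss (3.25 to 6.61). These intervals cover counting error only, since reads without molecular identifiers are not independent molecules.

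The front-end desaturases Fads1 and Fads2 differed by nearly the same amount as Lss. They insert the double bonds that turn dietary linoleic and linolenic acid into long polyunsaturated fatty acids, Fads2 at the delta-6 and Fads1 at the delta-5 position. They are neighbours on chromosome 19, Fads2 at 10062765 to 10101503 and Fads1 at 10182877 to 10196874, with 0 protein-coding genes of the RefSeq table between them. Fads1 had 325 and 303 normalized coding reads in the controls and 83.4 and 60.7 under eIF1A siRNA, a log2 difference of -2.13. Fads2 had 227 and 157 in the controls and 50.9 and 33.5 under eIF1A siRNA, a log2 difference of -2.17. Neither gene's groups overlapped. The controls of Fads2 stood further apart (SD 49.4, n = 2, around a mean of 192) than those of Fads1 (SD 16.1, n = 2, around 314). By counts, the controls were 4.23 times higher for Fads1 (95% counting interval 3.48 to 5.16) and 4.43 times higher for Fads2 (3.45 to 5.77).

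Scd2 had the lowest ratio of knockdown to control among the members as deposited, and Acss2 had it with 1 read subtracted from every value (log2 differences -3.67 for Scd2 and -3.95 for Acss2). Scd2 encodes stearoyl-CoA desaturase 2, which makes monounsaturated fatty acids from saturated ones (chromosome 19, 44293676 to 44306864). It had 673 and 637 normalized coding reads in the controls and 80.3 and 33.5 under eIF1A siRNA, a log2 difference of -3.63. The controls lay close together and the knockdown libraries differed from each other, at 79 and 21 reads. Between single pairs of a knockdown and a control library the log2 difference ran from -4.29 to -2.97. By counts the controls were 10.6 times higher (95% counting interval 8.63 to 13.1). How reads shared with the related gene Scd1 on the same chromosome were counted was not stated in the labels, so the split between these copies, and likewise among the related Fads genes, is uncertain.

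Acss2 was the least covered member. It encodes the cytosolic and nuclear acetyl-CoA synthetase, which turns acetate into the building block of both fatty acids and sterols (chromosome 2, 155518043 to 155562743). It had 36.5 and 32.8 normalized coding reads in the controls, from 51 and 38 reads, and 5.09 and 1.60 under eIF1A siRNA, from 5 and 1 reads. The log2 difference was -3.16. The controls were 9.35 times higher by counts, and the 95% counting interval ran from 4.13 to 26.2. If each value holds 1 added read, the ratio was 13.7 (5.17 to 51.5). Its difference is thus the least precise of the members.

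**Figure D1:**
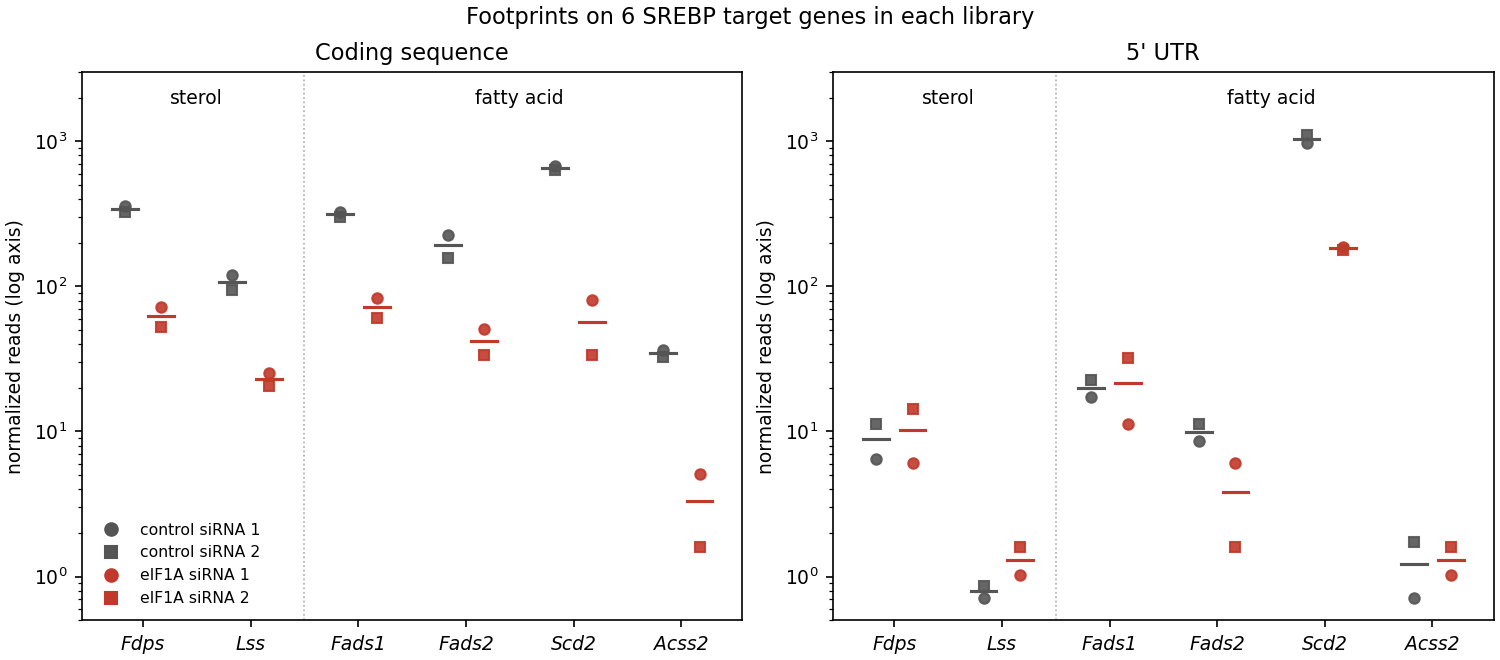
Normalized reads of the 6 members on a log axis, coding sequence on the left and 5' UTR on the right, with a dot per library (circle, replicate 1; square, replicate 2) and a line at each group's mean, n = 2, in grey for the control and red for the knockdown. In the coding sequence the groups are apart for all 6 genes, and in the 5' UTR Scd2 stands at 974 and 1108 in the controls against 188 and 179 under eIF1A siRNA.

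In coding reads, both knockdown libraries lay below both controls for 6 of 6 members, where 40.1% of the 4619 genes tested did so. This count was fixed by how the members were chosen and is printed as a description. The median log2 difference of all tested genes was -0.16. With factors of the trimmed mean of M values (TMM) in place of the deposited scaling it was 0.00, a shift of 0.16 towards higher values. From the lowest value upwards, Scd2 stood at place 13 of 4619, Acss2 at 31, Fdps at 90, Fads2 at 137, Lss at 139 and Fads1 at 149. Together the members held 0.444% and 0.379% of the listed coding reads in the controls and 0.0851% and 0.0670% under eIF1A siRNA (Wilson 95% intervals 0.427% to 0.462%, 0.362% to 0.397%, 0.0761% to 0.0950% and 0.0563% to 0.0797%). This share does not depend on the scaling between libraries. The intervals cover counting error only, and those of the controls did not overlap each other.

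The branches overlapped in their differences. The sterol branch ran from -2.44 to -2.16 with a median of -2.30, and the fatty acid branch from -3.63 to -2.13 with a median of -2.67. Fads1 and Fads2 lay beside Lss, while Scd2 and Acss2 lay below both sterol genes. In knockdown replicate 1 against control replicate 1 the medians were -2.24 for the sterol branch and -2.38 for the fatty acid branch. In knockdown replicate 2 against control replicate 1 they were -2.60 and -3.29. The branches' order was lost with a pseudocount of 5, where the fatty acid median was -2.17 and the sterol median -2.18. Members are not replicates, so the difference between the branches was not tested.

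Footprints on the 5' UTRs behaved unlike those on coding sequences, and Scd2 stood apart from the other members. Scd2 had 974 and 1108 normalized 5' UTR reads in the controls, more than any other listed gene in both (read numbers, not per length). In the knockdown libraries it had 188 and 179, a log2 difference of -2.50. With the deposited scaling the knockdown libraries lay close together here, from 185 and 112 reads, although their coding levels differed. The shares of listed 5' UTR reads held by Scd2, given below, differed between the knockdown libraries. By counts the controls were 5.61 times higher (95% counting interval 4.97 to 6.34). Scd2 thus took 1.90% and 1.71% of all listed 5' UTR reads in the controls and 0.202% and 0.123% under eIF1A siRNA. Both knockdown libraries lay below both controls in 7.19% of the 2101 genes tested on 5' UTR reads, where the median log2 difference was 1.09. Scd2 stood at place 9 of 2101 from the lowest.

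The other members carried few 5' UTR reads. Fads1 had 17.2 and 22.5 normalized 5' UTR reads in the controls and 11.2 and 31.9 under eIF1A siRNA, so its groups overlapped (log2 difference -0.05). It has no settled sign, at 0.12 under TMM scaling, 0.30 with edgeR, 0.32 with DESeq2, -0.99 with quantile normalization and -0.76 to 0.67 on leaving out 1 library. Fdps had 6.45 and 11.2 in the controls and 6.10 and 14.4 under eIF1A siRNA, also overlapping. Fads2 had 8.60 and 11.2 against 6.10 and 1.60, from 12, 13, 6 and 1 reads. Lss had 1 read in every library, and Acss2 1 or 2, so their 5' UTR values give no order. Scd2 and Fads1 were the 2 members with a mean of at least 10 normalized 5' UTR reads.

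As a share of a gene's own reads, which needs no scaling between libraries, the 5' UTR part was larger in both knockdown libraries for Scd2, Fdps and Fads1. For Scd2 it was 59.1% and 63.5% in the controls and 70.1% and 84.2% under eIF1A siRNA. The median of all listed genes was 7.69% and 10.0% in the controls and 15.1% and 27.3% under eIF1A siRNA. Fdps went from 1.78% and 3.35% to 7.79% and 21.4%, and Fads1 from 5.02% and 6.91% to 11.8% and 34.5%. Lss and Acss2 were at or within 1 read of the lowest value of the table on the 5' UTR in every library, so their shares follow their coding reads alone and are not read here. Fads2 had 3.65% and 6.67% in the controls and 10.7% and 4.55% under eIF1A siRNA, so its groups overlapped. More 5' UTR than coding reads in all 4 libraries, as for Scd2, was seen in 251 of 4878 genes (5.15%). The related gene Scd1 was among them, with shares of 51.2% and 59.2% in the controls and 64.5% and 83.6% under eIF1A siRNA.

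**Figure D2:**
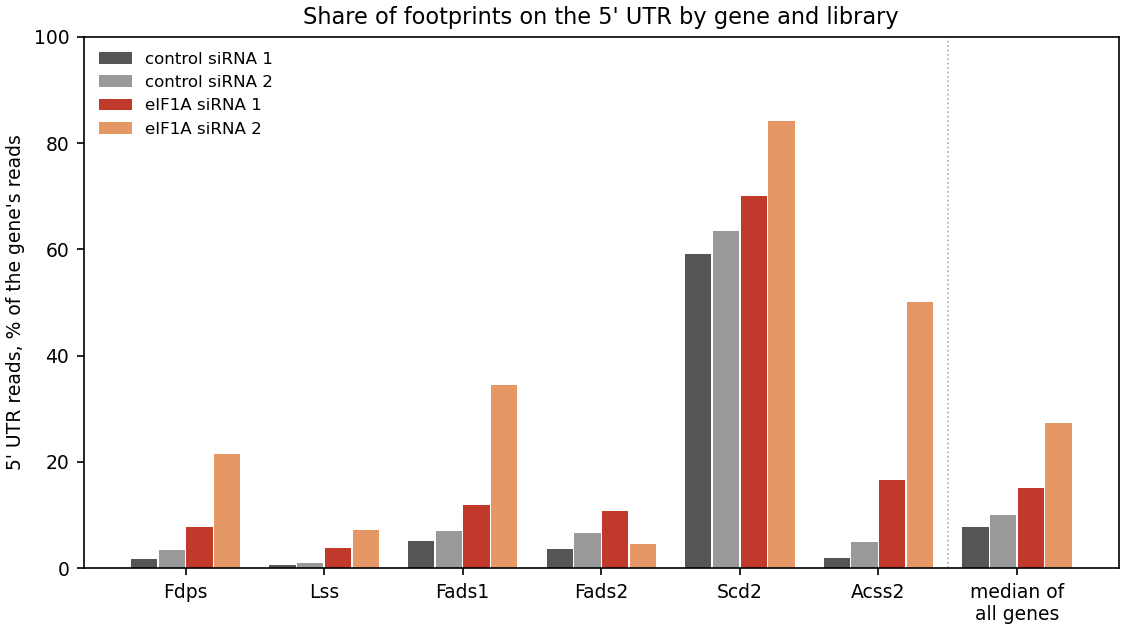
Reads on the 5' UTR as a percentage of each gene's reads on 5' UTR and coding sequence together, with a bar for each of the 4 libraries, and the median of all 4878 listed genes at the right. Scd2 runs from 59.1% to 84.2%, and the other members start below 7% in the controls.

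The 5' UTR reads per coding read could be set against all genes for 2 of the 6 members. On the log2 scale this ratio differed by 1.13 for Scd2 and by 2.08 for Fads1, with both knockdown libraries above both controls. That was the case in 63.9% of the 1907 genes with enough reads on both regions, whose median was 1.23. Scd2 thus lay below the median and Fads1 above it, with 45.4% and 82.7% of genes lower. Without knockdown replicate 2 the difference was 0.55 for Scd2 and 1.14 for Fads1, where the median of all genes was 0.76. Without knockdown replicate 1 it was 1.71 and 3.02, with a median of 1.76. With quantile normalization of each region it was 0.40 and 0.88. The median there was 0.08, so Scd2 lay above it.

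**Figure D3:**
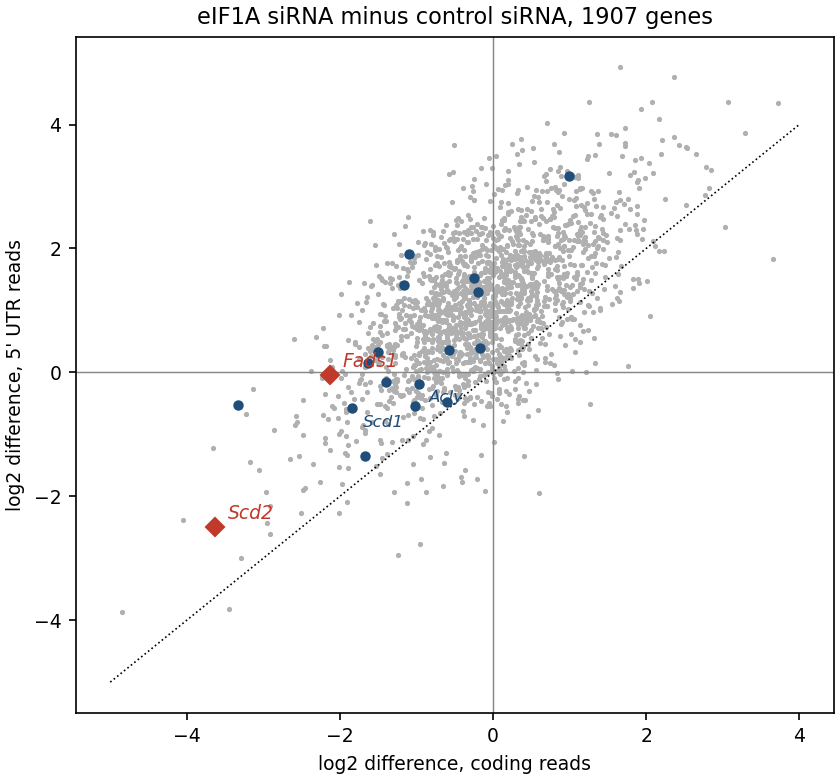
Log2 difference between eIF1A siRNA and control siRNA in 5' UTR reads (vertical axis) against that in coding reads (horizontal axis) for 1907 genes, with a dotted line of equality. Red diamonds are Scd2 and Fads1, blue dots are 16 other genes of sterol or fatty acid synthesis or sterol transport, and all of these lie above the line, as do 1752 of the 1907 genes.

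Other enzymes of sterol synthesis, left out of the members, fell as well. This list and the other lipid lists were chosen with earlier results of these data known. Their calls are therefore no independent support for the members' differences. The lists of other lipid genes were tested with limma over all genes, where 18.7% of 4619 genes were called lower and 10.6% higher in coding reads. With TMM factors the calls were 777 lower and 785 higher, in place of 864 and 488, and with edgeR 820 and 905. Of 19 further sterol synthesis genes 9 were tested, and 7 of them fell, 0 rose and 2 did not pass, with a median log2 difference of -1.67. Acat2, which joins acetyl-CoA units at the start of the pathway, fell from 39.9 ± 1.38 to 8.79 ± 3.40 normalized coding reads (SD, n = 2), a log2 difference of -2.11 ± 0.43 (SE, limma adjusted p = 0.00232). Fdft1, squalene synthase and the step after Fdps, fell by 1.74, and Dhcr7, the last reductase, by 2.19 (limma adjusted p = 0.00431 and 0.00713). Dhcr7 had 24 and 3 coding reads under eIF1A siRNA, and its log2 difference was -3.26 without knockdown replicate 1 and -1.13 without knockdown replicate 2. The lamin B receptor Lbr, which also has a sterol reductase activity, and Sc5d, a sterol desaturase, did not pass (log2 differences -0.18 and -0.60), and both were named after their values were seen. Hmgcs1 and Sqle were not analysed here. Without control replicate 1 limma called 1 of the 9 genes and without control replicate 2 it called 0, with 4 and 6 at an unadjusted p under 0.05, while on all 4 libraries edgeR called 7 and DESeq2 5.

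Among the other genes of fatty acid synthesis, elongation and desaturation, 7 of 14 tested (of 23 on the list) fell, 0 rose and 7 did not pass, with a median of -0.89. Scd1, the close relative of Scd2, fell from 101 ± 0.441 to 29.4 ± 14.5 normalized coding reads (SD, n = 2), a log2 difference of -1.84 ± 0.36 (SE, limma adjusted p = 0.00169). Fads3, the third gene of the desaturase cluster, fell by 1.40 (limma adjusted p = 0.00623). Elovl6, an elongase of saturated fatty acids, fell by 2.20 (limma adjusted p = 0.0246) on 5 and 1 reads under eIF1A siRNA, with -2.82 without knockdown replicate 1 and -1.59 without knockdown replicate 2. The enzymes that build the chain had smaller differences. Acly, which releases acetyl-CoA from citrate, fell by 0.97, Fasn, the fatty acid synthase, by 0.91, and Acaca, acetyl-CoA carboxylase, by 0.81 (limma adjusted p = 0.0169, 0.0359 and 0.0413). Fasn and Acaca did not pass with edgeR (adjusted p = 0.0743 and 0.0893), with DESeq2 (0.0678 and 0.14) or under TMM scaling (0.104 and 0.0999). Acly passed narrowly with edgeR (adjusted p = 0.0450). Its log2 difference ran from -1.04 to -0.61 over the 15 alternatives, and some of them ended its call. The list's count was 4 lower and 1 higher with edgeR. Without control replicate 1 limma called 1 lower and without control replicate 2 it called 0, with 5 and 3 lower at an unadjusted p under 0.05.

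**Figure D4:**
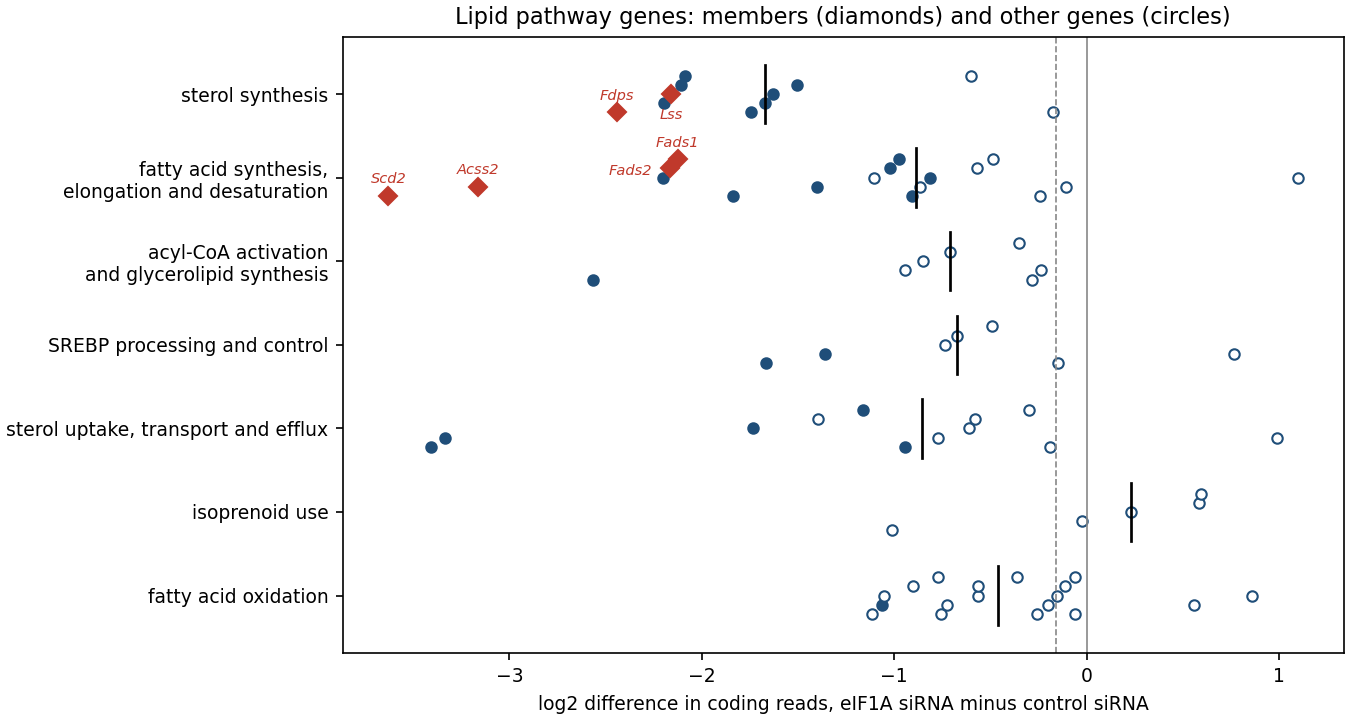
Log2 difference in coding reads, eIF1A siRNA minus control siRNA, for genes of 7 lipid lists. Red diamonds are the 6 members, circles are other genes (filled where the limma adjusted p is under 0.05), black lines are list medians without the members, and the dashed line is the median of all tested genes at -0.16. Sterol synthesis genes lie around -1.67 and isoprenoid genes around 0.23.

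Of the genes for SREBPs and their control, Srebf1 and the anchor gene Insig1 had fewer coding footprints. Srebf1, which encodes SREBP-1, fell from 315 ± 64.3 to 121 ± 13.1 normalized coding reads (SD, n = 2), a log2 difference of -1.36 ± 0.29 (SE, limma adjusted p = 0.00296). Insig1, which is also an SREBP target, fell by 1.67 (limma adjusted p = 0.00396). These were 2 of 7 tested, and 5 did not pass, among them Scap with a log2 difference of -0.15. Without control replicate 2 the calls of both ended, and without control replicate 1 that of Insig1. With edgeR, Erlin1 of this list was called higher (adjusted p = 0.0196), and it was named after its values were seen. Srebf2, which encodes SREBP-2, was not analysed here.

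Of the genes of sterol uptake, transport and efflux, 5 of 12 tested fell and 0 rose, with a list median of -0.86. Scarb1, a receptor for high density lipoprotein, fell from 89.2 ± 10.7 to 39.6 ± 8.66 normalized coding reads (SD, n = 2), a log2 difference of -1.16 ± 0.32 (SE, limma adjusted p = 0.0129). Osbp, an oxysterol-binding transfer protein, fell by 0.94 (limma adjusted p = 0.0223). Leaving out either control ended both calls, as did DESeq2 (adjusted p = 0.0641 and 0.0801). Lrp8, named after its values were seen, was also among those that fell.

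The remaining lists held few calls, and differences between lists were not tested. Among acyl-CoA activation and glycerolipid genes 1 of 7 tested fell, Pcyt2 of phosphatidylethanolamine synthesis, by 2.57 (limma adjusted p = 0.00222), and the list median was -0.71. Pcyt2 had 11 and 2 coding reads under eIF1A siRNA, and its log2 difference was -3.34 without knockdown replicate 1 and -1.80 without knockdown replicate 2. In fatty acid oxidation 1 of 18 tested fell, Cpt1a, which acts in the entry of fatty acids into mitochondria. It fell by 1.06 (limma adjusted p = 0.0136), and the list median was -0.46. Leaving out either control ended both calls. With edgeR, Eci1 of fatty acid oxidation was called higher (adjusted p = 0.0346), and it was named after its values were seen. Among genes that use the isoprenoids made from the product of Fdps, limma called 0 of 5 tested in either direction. At an unadjusted p under 0.05 there were 0, and edgeR also called 0. Fnta, the farnesyltransferase subunit, had a log2 difference of 0.58 and Zmpste24, which trims prenylated prelamin A, of 0.23.

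On 5' UTR reads limma called 44.0% of 2101 genes higher and 2.81% lower, and on the ratio 20.5% of 1907 genes higher and 0.0524% lower. Quantile normalization changed the split from 924 higher and 59 lower to 452 and 375 on 5' UTR reads, and from 391 and 1 to 48 and 25 on the ratio. On 5' UTR reads with the deposited scaling, limma called 0 of 5 sterol synthesis genes (1 lower at an unadjusted p under 0.05, and 0 with edgeR). Of 8 fatty acid genes 3 rose, Elovl5, Hacd3 and Mid1ip1, which were named after their values were seen, and 0 fell. With quantile normalization the counts were 2 lower for the sterol genes, and 1 higher and 4 lower for the fatty acid genes. Scd1, the relative of Scd2, had 127 ± 28.4 normalized 5' UTR reads in the controls and 84.8 ± 17.8 under eIF1A siRNA (SD, n = 2), a log2 difference of -0.57 that did not pass (limma adjusted p = 0.288). On the ratio, 0 of 5 sterol genes were called by limma (2 higher at an unadjusted p under 0.05), and 1 of 7 fatty acid genes rose. Scarb1 rose on the ratio by 2.57 on the log2 scale (limma adjusted p = 0.0102), with a 5' UTR log2 difference of 1.41. On 5' UTR reads it passed with limma (adjusted p = 0.0158) and not with edgeR (adjusted p = 0.0615). Scarb1 was not the only gene of the sterol uptake list called higher by limma on 5' UTR reads. With either control left out, limma called 0 genes on the ratio, with 121 (without replicate 1) and 194 (without replicate 2) at an unadjusted p under 0.05.

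The genes with coding profiles nearest to the members' median profile were genes of other functions. Likeness was the Euclidean distance between log2 values centred per gene over the 4 libraries, computed for the 1853 genes averaging 50 or more normalized coding reads. The nearest were Mmp2 (distance 0.193), a secreted gelatinase, Ccnb2 (0.206), a mitotic cyclin, Anxa6 (0.245), a membrane-binding annexin, Dag1 (0.377), dystroglycan, and Fkbp9 (0.378), a prolyl isomerase of the endoplasmic reticulum. Mmp2 had 249 and 210 normalized coding reads in the controls and 54.9 and 43.1 under eIF1A siRNA. The members themselves lay at 0.095 for Fdps, 0.266 for Lss, 0.274 for Fads1, 0.312 for Fads2, 0.956 for Acss2 and 1.37 for Scd2, against a median of 2.14 for the genes compared. With 4 libraries in 2 groups, this distance mainly ranks genes by the size of the group difference.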

How the data were processed

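Ribosome footprints from 2 control siRNA and 2 eIF1A siRNA libraries were analysed, grouped by the labels. Lysates were digested with RNase I and ultracentrifuged, per the labels' protocols. The submitters' processing notes name the build mm10 and the tools Bowtie, TopHat2, cutadapt, HTSeq and DESeq2, with no settings. The deposited table holds a normalized signal, made by the authors, per gene for 5' UTR and coding sequence. All of its values were whole multiples of 1 read within 0.001 reads, from which reads were recovered. Members and lists were chosen with earlier results of these data known. For each region, log2(value + 1) was fitted with limma 3.58.1 (trended eBayes, R 4.3.3) over genes with a mean of at least 10, with Benjamini-Hochberg adjustment at 0.05. The ratio is the difference of both logs, over genes that pass on both regions. The alternatives covered the pseudocount, filter, scaling, variance trend, replicate block and left-out libraries, and edgeR 4.0.16 (quasi-likelihood) and DESeq2 1.42.0 on whole reads. Fold changes of low genes are understated by the pseudocount of 1. Count ratios compare summed reads with exact binomial intervals. Genes were named by rule: the 6 members, regulators and enzymes set by name, up to 4 called genes per list by adjusted p (or 2 by level), and the 5 nearest in profile. Other names are marked. Exact permutation of 2 against 2 libraries cannot go below p = 0.333, so none was used. Correlation between replicates over genes was 0.954 for the controls and 0.909 for the knockdown libraries. The libraries of each group differed beyond counting noise. Some genes of these lists are counted but not reported here by name.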

Additional observations from a re-analysis of the deposited data

How the results depend on the processing

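All 6 members stayed negative in coding reads under the 15 alternatives, with Acss2 between -3.95 and -2.28. The branch order did not hold with a pseudocount of 5, where the fatty acid median was -2.17. At a pseudocount of 1, leaving out 1 library gave a fatty acid median between -3.12 and -2.23. That median could not be computed at a mean of at least 50, since Acss2 is left out there. With a mean of at least 50, 788 coding, 232 5' UTR and 110 ratio calls were made, and 2 sterol list genes were called lower, since fewer genes were tested. Quantile normalization gave 73 ratio calls and 3 fatty acid list genes, edgeR 4, and DESeq2 and eBayes without trend 3 each, and the cause was not tested. Leaving out 1 library gave 11 to 1729 coding, 189 to 1396 5' UTR and 0 to 1168 ratio calls, 0 to 7 sterol list genes and 0 to 6 fatty acid list genes. The lowest coding counts were 294 without control replicate 1 and 11 without control replicate 2, with 1295 and 967 genes at an unadjusted p under 0.05. On the ratio, 121 and 194 genes had an unadjusted p under 0.05 where limma called 0. Replicate numbers are shared between groups, and deviations of same-numbered libraries correlated at 0.261 over genes, but 2 pairs do not establish a pairing. With the replicate block 1921 coding, 1258 5' UTR and 862 ratio calls were made, with 7 sterol and 8 fatty acid list genes. Subtracting 1 read from every value was an alternative chosen after seeing the data. Depth limits Acss2 in both regions and Lss, Fdps and Fads2 on the 5' UTR.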
